A study of Mus musculus with 248 samples.

Results

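The genes described here are the 32 cytosolic ribosomal protein genes found in the authors' lists of genes that differed between hematopoietic stem cells (HSCs) of high and low mitochondrial membrane potential (MMP), between clusters of these cells, or among the highly variable genes. They were chosen by symbol, as names that start with Rpl or Rps and a digit, plus Rpsa, without the Rps6k kinases and without pseudogene names ending in -ps and a number. They make up 32 of the 7272 genes named in the 3 lists, with 14 proteins of the large ribosomal subunit and 18 of the small subunit. The GENCODE M21 annotation of the mouse genome holds 84 protein-coding names that fit the same rule, 49 large and 35 small, among them a readthrough gene and Rps19bp1, which encodes a partner of Rps19 and not a subunit. Of these 84 names, 52 were in none of the 3 lists, and no level or fold was available for them.

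Single HSCs of C57Bl6 mice were compared as MMP-high and MMP-low cells, and the labels name no treatment and no altered gene for either group. The sort of both groups took lineage-negative cells that carry Sca1, cKit and CD150 and lack CD48, a profile used for long-term HSCs, and the last gate set them apart by the voltage across the inner mitochondrial membrane. Each cell was caught on a Fluidigm C1 microfluidic chip, where Calcein-negative cells, taken as dead, were set aside, and its polyadenylated RNA was copied over its full length with the SMART-Seq v4 kit. The labels name no animal, age, sex or sort day for any of the 126 MMP-high and 122 MMP-low libraries, so each group counted as 1 sample and the difference between them has no replicate check.

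Ribosomal proteins surround and stabilise the ribosomal RNA that reads messenger RNA and joins amino acids. The small subunit finds the start codon and checks codon against anticodon, and the large subunit makes the peptide bond and holds the tunnel through which the new chain leaves. Adult HSCs are known for a low rate of protein synthesis, and loss of 1 copy of several ribosomal protein genes causes Diamond-Blackfan anaemia in humans, a failure of red cell production. Messenger RNAs of these genes usually begin with a run of pyrimidines at the 5′ end, the terminal oligopyrimidine motif, through which their translation is controlled by the mTOR pathway.

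The sequences around the start sites are shown first, since such a run is the textbook mark of these genes. Each covers the 50 bases before and the 25 bases from the annotated start, from RefSeq on GRCm38.p6, and capitals mark runs of at least 8 pyrimidines. A marked run can lie before the annotated start, as that of Rps25 does wholly, so it is not by itself a terminal oligopyrimidine motif. RefSeq windows were matched by symbol for 25 of the 32 genes. The 5 genes of the longest run near the start among those higher in MMP-high are Rpl34 at chr3:130730313-130730387 on the minus strand, Rpl27a at chr7:109519145-109519219 on the plus strand, Rpl35 at chr2:39005107-39005181 on the minus strand, Rps25 at chr9:44407664-44407738 on the plus strand and Rps10 at chr17:27635220-27635294 on the minus strand. Rpsa at chr9:120127716-120127790 on the plus strand had the largest difference, and Rpl22l1 at chr3:28805458-28805532 on the plus strand is the member that was higher in MMP-low.
Rpl34: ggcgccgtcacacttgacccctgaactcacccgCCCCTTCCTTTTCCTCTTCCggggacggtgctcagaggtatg
Rpl27a: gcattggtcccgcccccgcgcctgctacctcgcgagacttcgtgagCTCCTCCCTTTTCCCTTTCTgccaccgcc
Rpl35: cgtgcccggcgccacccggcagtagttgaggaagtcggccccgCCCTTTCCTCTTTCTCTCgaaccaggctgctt
Rps25: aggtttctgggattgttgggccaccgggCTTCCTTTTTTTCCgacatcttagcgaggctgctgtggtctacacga
Rps10: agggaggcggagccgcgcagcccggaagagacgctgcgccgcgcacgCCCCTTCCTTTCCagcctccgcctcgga
Rpsa: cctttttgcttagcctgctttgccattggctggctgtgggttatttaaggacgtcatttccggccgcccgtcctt
Rpl22l1: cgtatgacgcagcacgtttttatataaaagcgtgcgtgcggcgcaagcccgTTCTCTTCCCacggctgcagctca
The runs of Rpl34 and Rpl27a were 20 bases long, those of Rpl35, Rps25 and Rps10 were 18, 14 and 13 bases long, and that of Rpl22l1 was 10 bases long. The 75 bases of Rpsa hold no run of 8 pyrimidines. The window shown for Rpl34 is that of the second of its 2 annotated start sites.

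The files analysed here hold per-library quality values and result tables of the authors, with no expression level per cell. The median library had 568088 mapped reads and 3796 detected genes in MMP-high, against 508338 mapped reads and 2317 detected genes in MMP-low. Among libraries numbered up to 85 the medians were 1035705 mapped reads and 4080 genes in MMP-high, against 472174 and 2500 in MMP-low. Above 85 the order was the other way, at 454512 mapped reads and 1905 genes in MMP-high and 564476 and 2083 in MMP-low. Among libraries with over 600000 mapped reads the medians were 3842 genes in MMP-high and 2556 in MMP-low. By contrast, the median gene that the authors' deposited table of the MMP groups lists as higher in MMP-high was detected in 96.6% of MMP-high cells, against 75.2% of MMP-low cells. How detection was called for either count is not stated in the sources used here, and neither is the number of cells behind each percentage, so no interval is given. The table lists genes with an average log fold change of at least 0.25 (it states no log base) and an unadjusted p of at most 0.00999.

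Ribosomal protein genes were almost all higher in MMP-high HSCs where they were listed at all. The authors' deposited table lists 29 of the 84 annotated names (34.5%) as higher in MMP-high, beside 5.67% of the 16203 genes tested. A single name, Rpl22l1 (1 of 84, 1.19%), was listed as higher in MMP-low, beside 5.86% of the genes tested. An adjusted p under 0.05 was given to 28 of the 84 names in MMP-high (33.3%), where 3.69% of the genes tested passed, and to 0 of 84 in MMP-low, where 3.33% passed, per the authors' deposited table. Among listed genes alone, 28 of the 29 members in MMP-high passed, beside 598 of all 919 (65.1%). Being in one of the lists is what put a gene among the 32, so the share of the 84 names, not of the 32, is the one to set beside these percentages. The authors' p-values come from a model of single cells and do not measure a spread between animals.

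The differences lay in a narrow range. The 29 log folds in the authors' deposited table ran over 0.257 to 0.435 with a median of 0.303, beside a median of 0.328 and a highest value of 0.925 for all 919 genes higher in MMP-high. Ranked by fold among these 919, the median ribosomal protein gene stood at 591 and the highest, Rpsa, at 144. Ranked by the authors' p, the median stood at 258, with a range of 151 to 720. So these genes lay below the middle of the list by size and above it by p, per the authors' deposited table. The large and the small subunit had medians of 0.300 and 0.308.

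**Figure D1:**
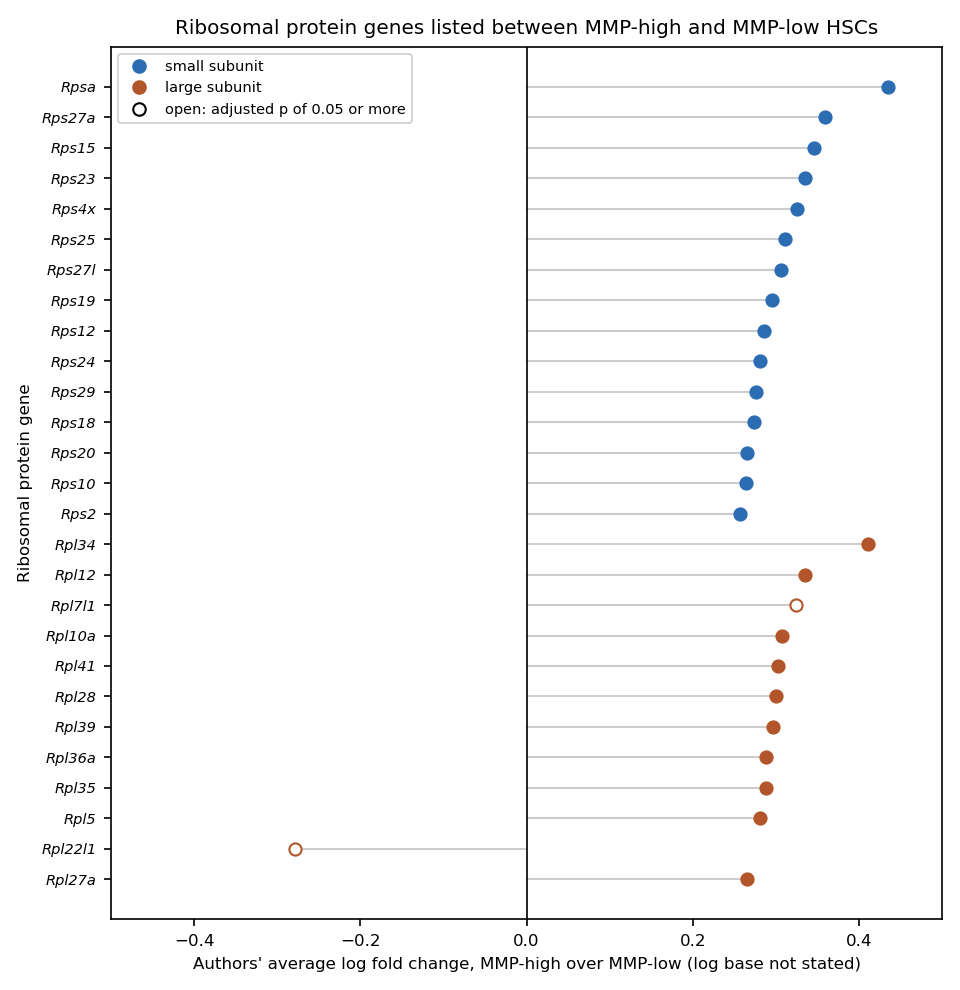
Average log fold change of 27 ribosomal protein genes in the authors' table of the MMP groups, positive where the gene was higher in MMP-high; the log base is not stated and 1 point is 1 gene. Filled points have an adjusted p under 0.05; 26 genes lie between 0.257 and 0.435, and Rpl22l1 lies on the MMP-low side with an open point.

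A larger share of the small subunit names than of the large subunit names was listed, a difference that was not tested. Listed as higher in MMP-high were 18 of 35 small subunit names (51.4%) and 11 of 49 large subunit names (22.4%), per the authors' deposited table. Without paralogs and partner proteins the shares were 17 of 32 (53.1%) and 10 of 43 (23.3%). The 32 still hold the readthrough gene, and the name rule leaves the Rplp proteins out of the 43. The adjusted p was under 0.05 for all 18 small subunit genes and for 10 of the 11 large subunit genes per the authors' deposited table. Small subunit names that were in none of the lists include Rps3, Rps6, which is phosphorylated by S6 kinases, and Rps14, and large subunit names include Rpl3, Rpl4 and Rpl11. These 6 were chosen as well-known examples after the lists were seen. A gene can be missing from the lists because its fold was below the minimum, because of its p, or because it was not tested, and these cannot be told apart.

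Among small subunit genes the largest difference was that of Rpsa, on chromosome 9 from 120127689 to 120132369, which encodes a protein near the exit of the messenger RNA channel that was first known as a laminin receptor. The authors' deposited table gave Rpsa a log fold of 0.44 toward MMP-high with an adjusted p of 8.77e-09. Rps27a, made as a fusion with ubiquitin that is cut off after translation, had a log fold of 0.36 and an adjusted p of 1.50e-07 per the authors' deposited table. For Rps15, a protein of the head of the subunit, the log fold was 0.35 with an adjusted p of 8.12e-06, per the authors' deposited table. Both detection shares were 100% for each of these 3 genes in that table. By that call of detection, which the sources used here do not explain, the difference given is one of average level.

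A further 12 small subunit genes lay lower. The authors' deposited table placed Rps23, which sits in the decoding centre and bears on the accuracy of translation, at 0.34, and the X-linked Rps4x at 0.33. Rps25, which several viral internal ribosome entry sites need, stood at 0.31, and Rps27l, a paralog of Rps27 that p53 induces in human cells, at 0.31 per the authors' deposited table. Rps19, the gene most often mutated in human Diamond-Blackfan anaemia, was at 0.29, and Rps24, also a gene of that disease, at 0.28 per the authors' deposited table. Rps12, Rps29, Rps18 and Rps20 had log folds of 0.29, 0.28, 0.27 and 0.27, and Rps10 and Rps2 closed the list at 0.26 and 0.26, per the authors' deposited table. For these 12 genes the authors' deposited table gives an adjusted p between 2.07e-09 for Rps23 and 0.00258 for Rps10, and detection in 100% of the cells of both groups.

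Among large subunit genes Rpl34, on chromosome 3 from 130726831 to 130730398, led with a log fold of 0.41 toward MMP-high and an adjusted p of 1.65e-08 per the authors' deposited table. It stood apart from the next, Rpl12, part of the base of the stalk where elongation factors bind, at 0.33 with an adjusted p of 0.000482 per the authors' deposited table. The authors' deposited table gave Rpl10a, the protein of the mobile L1 stalk, 0.31 with an adjusted p of 0.000459. Rpl41, the shortest of the group at 25 residues, had 0.30 with 7.42e-09, and Rpl28 had 0.30 with 5.52e-07 per the authors' deposited table.

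Rpl39, which lines the exit tunnel, stood at 0.30, and Rpl36a and Rpl35, of which Rpl35 lies beside the tunnel exit, stood at 0.29 each, per the authors' deposited table. Rpl5, which carries 5S ribosomal RNA together with Rpl11 and can bind Mdm2, the regulator of p53, was at 0.28 with an adjusted p of 0.000937 per the authors' deposited table. Rpl27a was the lowest at 0.27, with an adjusted p of 0.00809 per the authors' deposited table. These 5 genes and the 5 others with an adjusted p under 0.05 were all detected in 100% of the cells of both groups.

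Of the 3 listed paralogs, Rps27l had values like those above, and Rpl7l1 and Rpl22l1 did not. Rpl7l1, a paralog of Rpl7 on chromosome 17 from 46773907 to 46782672, was detected in 100% of MMP-high cells, against 90.5% of MMP-low ones, per the authors' deposited table, a difference of 9.5 percentage points. Its log fold was 0.32 toward MMP-high with an adjusted p of 1 per the authors' deposited table, so it was not called. Rpl22l1, a paralog of Rpl22 on chromosome 3 from 28805436 to 28807424, was detected in 98.3% of MMP-high cells, against 98.1% of MMP-low ones, per the authors' deposited table. The log fold of Rpl22l1 was 0.28 toward MMP-low with an adjusted p of 1 per the authors' deposited table, and it was not called either. The kinase Rps6kb2, which the name rule leaves out and which can phosphorylate Rps6, was listed toward MMP-low with a log fold of 0.29, in 44.5% of MMP-high cells, against 70.5% of MMP-low ones, at an adjusted p of 0.000577 per the authors' deposited table.

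Detection was at its ceiling for nearly all of the listed members. It was 100% in both groups for 28 of the 30 listed members, 18 small and 10 large subunit genes, per the authors' deposited table. Of all 919 genes higher in MMP-high, 159 (17.3%) had both shares at 100%, and 28 of these 159 (17.6%) were members. Another 7 of the 159 were named pseudogene copies of ribosomal protein genes. Of the 949 genes higher in MMP-low, 97 (10.2%) had both shares at 100% per the authors' deposited table, and 0 of these were ribosomal protein genes. The median difference in detection, MMP-high minus MMP-low, was 18.5 percentage points over all genes higher in MMP-high and 0 over the 29 members.

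**Figure D2:**
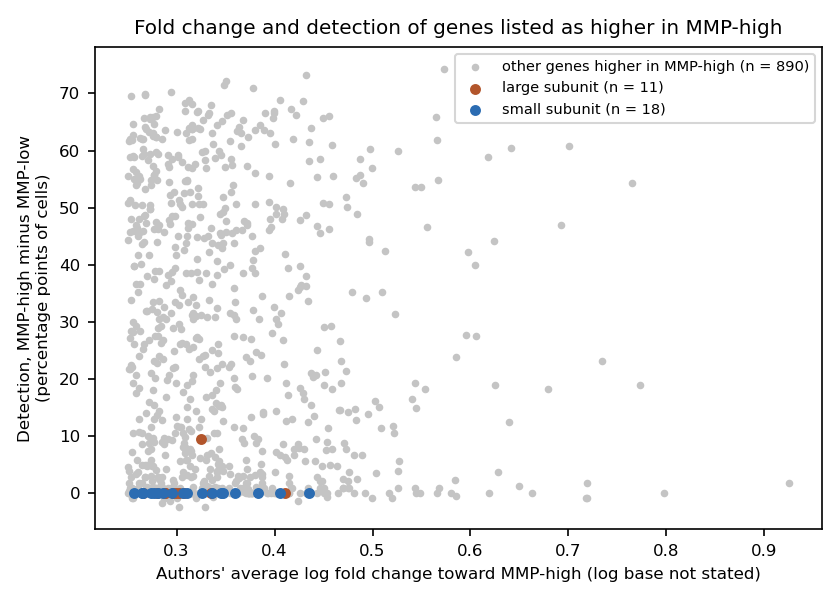
Difference in the share of cells in which a gene was detected, MMP-high minus MMP-low in percentage points, against the authors' average log fold change, for the 919 genes listed as higher in MMP-high; 1 point is 1 gene. The 18 small and 10 of the 11 large subunit genes lie at a difference of 0, and Rpl7l1 lies at 9.5.

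The other genes at 100% in both groups reached larger folds. Those higher in MMP-high that were neither members nor named copies had a median log fold of 0.337 with a range of 0.251 to 0.797 per the authors' deposited table. They still include Rplp1 and Rplp2, which the name rule leaves out, and copies under other symbols were not searched for. For the 97 higher in MMP-low, the authors' deposited table gave a median of 0.378 with a range of 0.262 to 1.88.

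The ribosomal protein genes were not among the genes that the authors marked as highly variable. That list holds 5625 genes, or 34.7% of the 16203 tested, and 0 of the 32 members. It holds 5 Rps6k kinases and 0 pseudogene copies. Of the 1868 genes in the authors' deposited table of the MMP groups, 967 (51.8%) were highly variable. How that list was made is not stated in the sources used here.

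Of the authors' 5 clusters, cluster D had the most listed ribosomal protein genes, and most of these had no adjusted p under 0.05. Of the 84 annotated names, the authors' deposited table of cluster genes held 7 for cluster D, 1 for cluster C, 1 for cluster A and 0 for clusters B and E. The shares of all genes tested that were listed were 3.23% for D, 5.12% for C, 5.27% for A, 4.16% for B and 2.8% for E. The clusters were built from the same cells, so a cluster against the others is a description and no test. Of these 9 genes 7 were also in the table of the MMP groups.

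In cluster D the leading gene was Rps29, a zinc-binding protein of the head of the small subunit, at a log fold of 0.34 over the other cells with an adjusted p of 0.00219 per the authors' deposited table. The authors' deposited table gave Rps25 0.34 with an adjusted p of 0.00139. An adjusted p under 0.05 was thus given to 2 of the 84 annotated names in cluster D, near the 1.86% of the genes tested. That share of the genes tested was 3.07% in C, 4.05% in A, 1.64% in B and 1.12% in E. The other 5 listed for cluster D did not reach an adjusted p under 0.05. Among them were Rps27l and Rps2 at log folds of 0.31 and 0.30 with an adjusted p of 1 each, Rpl39 at 0.27 with 1 and Rpl37a at 0.27 with 0.265, per the authors' deposited table. The median of the 7 was 0.309, beside 0.313 for all 524 cluster D genes. All 7 were detected in 100% of the cells in and outside the cluster, as were 15 of the 524 cluster D genes (2.86%) per the authors' deposited table.

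Rpl22l1, the member on the MMP-low side, was listed for cluster A at 0.27, detected in 100% of cluster A and 97.8% of other cells with an adjusted p of 0.232, per the authors' deposited table. The kinases Rps6ka1 and Rps6kb2 were listed for cluster A too, at 0.37 and 0.26, per the authors' deposited table.

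Pseudogene copies were listed apart from their parents. Processed pseudogenes are copies of a messenger RNA put back into the genome, and ribosomal protein genes have many of them. The authors' deposited table of the MMP groups lists 10 named copies, all of them higher in MMP-high, with log folds of 0.252 to 0.385 and a median of 0.288. They included copies of Rpsa, Rps19, Rpl10a, Rpl36a and Rps27a, all of which were listed in the same direction. Rpl36a-ps3 had a log fold of 0.38, against 0.29 for Rpl36a, and Rpl10a-ps1 had 0.32, against 0.31 for Rpl10a, per the authors' deposited table. The other 8 copies lay below their parents. The number of copies among the genes tested is not known here, so the counts of copies could not be turned into shares. Of all genes tested, 5.67% were listed for MMP-high, 5.86% for MMP-low and 2.8% for cluster E. The counts of copies are therefore a description only.

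**Figure D3:**
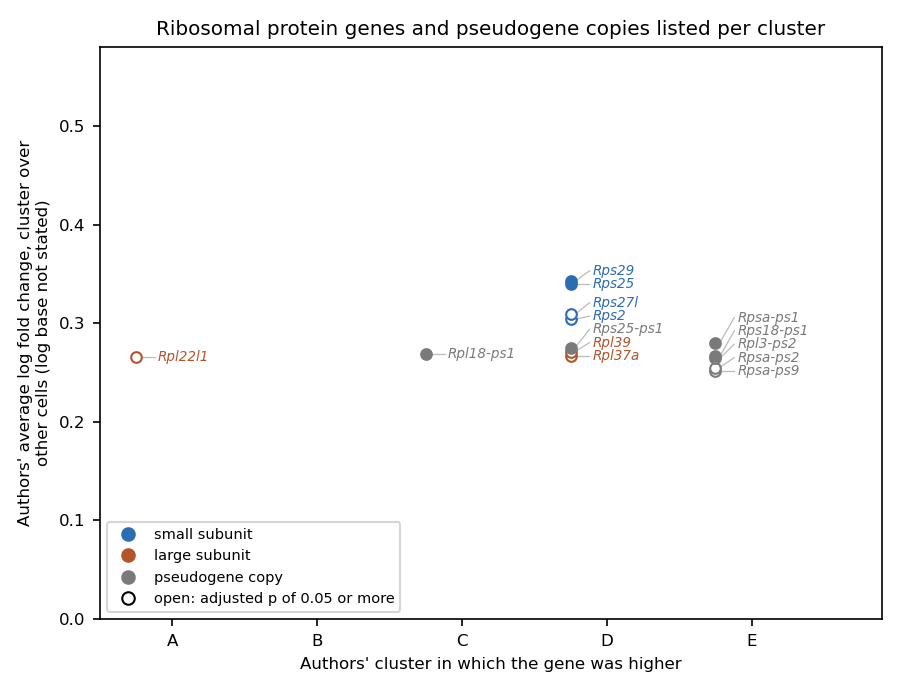
Average log fold change of ribosomal protein genes and their pseudogene copies in the authors' table of cluster genes, cluster over other cells, by the cluster in which each was higher; the log base is not stated, 1 point is 1 gene and filled points have an adjusted p under 0.05. Of the 7 genes shown, cluster D holds 6 and cluster A holds Rpl22l1, and the 5 points of cluster E are all copies.

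Cluster E listed copies without any parent. Its 5 copies in that table were Rpsa-ps1, Rps18-ps1, Rpl3-ps2, Rpsa-ps2 and Rpsa-ps9, with log folds of 0.28, 0.27, 0.26, 0.26 and 0.25. Adjusted p was 0.0353 for Rpsa-ps1 and 0.000114 for Rps18-ps1 per the authors' deposited table, and 1 for the other 3. Cluster D listed Rps25-ps1 at 0.28 beside its parent Rps25, and cluster C listed Rpl18-ps1 at 0.27.

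The sequence that a gene shares with its copies bears on how reads of 100 nt can be assigned. For each annotated gene, the distinct 100-nt windows of its transcripts were pooled. The share of these found exactly in a transcript of any other gene, a copy or not, was counted. The median was 27.7% over the 30 members in the table of the MMP groups, 20.6% over the other 54 annotated names, and 0% over all protein-coding genes, of which 77.6% shared no window. Among the listed members 5 of 30 shared over 50% of their windows, with Rpl36a at 83.6%, Rps12 at 56.3% and Rpl10a at 51.7%. Rps27l shared 0%, Rpl7l1 1.36%, Rpl39 1.75% and Rpl34 5.79%.

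Rpl34, at a log fold of 0.41 per the authors' deposited table, shares few windows, and Rps27a, at 0.36, shares 46.2% of its windows. How the authors counted reads that match several genes is not stated in the sources used here, so values of a parent and its copies are uncertain, and the part of shared reads in the folds was not tested. Among the members in the table of the MMP groups, Rps12 had the most named copies in the annotation, 24, followed by Rps19 with 14, Rps2 with 11 and Rpsa with 9.

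**Figure D4:**
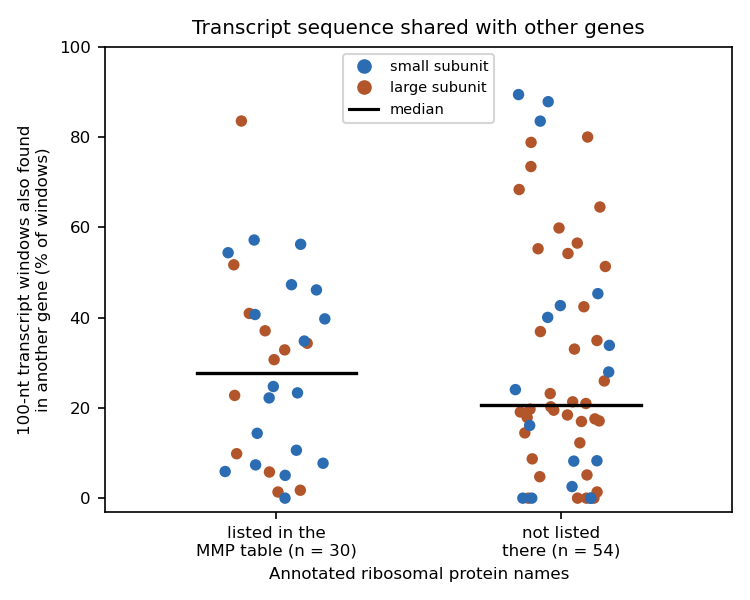
Share of 100-nt transcript windows also found in a transcript of another gene, for the 30 annotated ribosomal protein names listed in the authors' table of the MMP groups and the 54 that were not; 1 point is 1 gene, the side position within a group is random and the bar is the median. Medians are 27.7% and 20.6%, and both groups span most of the range.

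The listed genes were spread over the genome. They lie on 15 chromosomes, with Rpl39, Rpl36a and Rps4x on the X chromosome. Of the sex chromosome genes, chosen after their values were seen, the Y-linked Eif2s3y was detected in 12.6% of MMP-high cells, against 89.5% of MMP-low ones, at an adjusted p of 8.49e-25 per the authors' deposited table. Xist, the RNA of X inactivation, was found in 100% of MMP-high cells, against 96.2% of MMP-low ones, and did not pass, with an adjusted p of 0.108 per the authors' deposited table. Ddx3y and Uty, also Y-linked, were detected in 8.4% and 5% of MMP-high cells, against 70.5% and 65.7% of MMP-low ones. The labels name no sex and no animal. The part of a sex or animal difference between the groups in the ribosomal protein folds, X-linked or not, was not tested. Small nucleolar RNAs, which guide the modification of ribosomal RNA, are often encoded in introns of ribosomal protein genes. Of the 30 members in the table of the MMP groups 10 (33.3%) host an annotated one, against 19 of the other 54 names (35.2%). Encoded proteins had a median of 144 residues for the listed genes and 160 residues for the 53 other names with a length, with ranges of 25 to 297 and 51 to 419.

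Sequence motifs around the start site were counted in listed and unlisted ribosomal protein genes, and differences between these sets were not tested. Windows of 300 bases, 250 before and 50 after the start, were searched on both strands, and ATGGCG and CGGAAG can overlap at their ends. CGGAAG, the core bound by ETS factors such as GABPA, was near the start of 65.2% of the 23 genes higher in MMP-high that have a window, 70% of the 40 unlisted names and 18.8% of all 27025 genes in the RefSeq table. ATGGCG, the core of the YY1 motif, was found for 39.1% of the genes higher in MMP-high, 27.5% of the unlisted names and 10.2% of all genes.

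A run of at least 8 pyrimidines on the coding strand within 25 bases of the start was found for 56.5% of the genes higher in MMP-high, 45% of the unlisted names and 22.3% of all genes. CACGTG, the E-box bound by Myc and Max, was found for 8.70%, 10% and 8.09% of the same sets, and TATAAA, the TATA box, for 3 of the 23 genes higher in MMP-high, 2 of the 40 unlisted names and 15.7% of all genes. Of the sequences printed above, those of Rpl34, Rpl27a, Rpl35, Rps25, Rps10 and Rpsa have CGGAAG in the 300 bases around the start, and that of Rpl22l1 has none. A match describes letters and not binding.

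The authors' own enrichment tables hold many of these genes. For MMP-high, 41 of 61 gene ontology terms per the authors' deposited table held at least 1 of them. Cytosolic small ribosomal subunit counted 19 of its 46 genes, 18 of them members, with an adjusted p of 4.62e-12, and cytosolic large ribosomal subunit counted 15 of 64, 11 of them members, with 4.56e-06, per the authors' deposited table. The term for rRNA processing counted 50 genes and 27 of these 50 are members, and translation counted 42 with 28. Rps27a alone also stood in terms for ubiquitin-dependent breakdown such as protein polyubiquitination, where it was 1 of 29 genes. These terms rest on the same genes as the table of the MMP groups and are no separate support.

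Among transcription factor terms, all 21 for MMP-high and 0 of 21 for MMP-low held a ribosomal protein gene per the authors' deposited table. With 29 members among the genes higher in MMP-high and 1 among those higher in MMP-low, these counts follow from the lists themselves and add no separate support. TAF1 targets held 27 of them among 349 genes. MYC targets from the ENCODE source held 21 among 218 genes. TAF7 targets held 16 of 83 genes and E2F4 targets 1 of 131 per the authors' deposited table. For cluster D, rRNA processing counted 17 genes with 6 members and an adjusted p of 0.00615, while translation, with 7 members among 10 genes, had 0.232. In the authors' list of 55 genes headed MMP-high and aHSC the members were Rpl12, Rps27l and Rps4x, 3 in all (5.45%), and in the list of 99 genes headed MMP-low and dHSC there were 0. Members made up 29 of all 919 genes higher in MMP-high (3.16%) and 1 of all 949 higher in MMP-low (0.105%), so both counts lay near these shares.

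Other parts of the translation machinery were listed mostly on the same side. For these lists and those of the next paragraph, the shares over all genes tested are 5.67% listed on the MMP-high side and 5.86% on the MMP-low side, and 3.69% and 3.33% with an adjusted p under 0.05. Of 7 names of ribosome-linked proteins that the name rule misses, Rplp1 and Rplp2, the acidic proteins of the stalk, were higher in MMP-high with log folds of 0.35 and 0.32 per the authors' deposited table, both with an adjusted p under 0.05. Gnb2l1 and Rack1, symbols of the same gene, are both among the 7 names. Of 44 translation factors 14 were on the MMP-high side and 2 on the MMP-low side, with an adjusted p under 0.05 for 8 and 0, per the authors' deposited table. The authors' deposited table gave log folds of 0.47 for Eif2s1 and 0.46 for Eif2s3x, subunits of the factor that brings the initiator tRNA. Eif6, which keeps the large subunit from joining too early, stood at 0.45 and the release factor Etf1 at 0.44 per the authors' deposited table. The adjusted p was 0.917 for Eif2s1 and 0.167 for Etf1, 9.05e-07 for Eif2s3x and 0.00216 for Eif6. Eif2s3x is the X-linked counterpart of the Y-linked Eif2s3y given above, which was detected in fewer MMP-high than MMP-low cells. The part of a sex difference between the groups in the Eif2s3x fold was not tested.

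Genes that build ribosomes were listed more often toward MMP-high. Of 55 genes for ribosome assembly and rRNA synthesis, 15 were on the MMP-high side and 2 on the MMP-low side, with an adjusted p under 0.05 for 10 and 2, per the authors' deposited table. The 2 toward MMP-low lie near the shares over all genes tested. Wdr43, needed for processing of the small subunit RNA, was higher in MMP-high at 0.68, and Myc, which drives ribosome production, at 0.44. Utp4, of the small subunit processome, and Nop2, an rRNA methyltransferase, were higher in MMP-low at 0.53 and 0.48 per the authors' deposited table. Of 78 mitochondrial ribosome names 12 were on the MMP-high side and 1 on the MMP-low side, with an adjusted p under 0.05 for 8 and 1. Mrpl13 led these at 0.43, followed by Mrpl42, Mrps23 and Mrps14 at 0.36 each per the authors' deposited table, with Mrps14 at an adjusted p of 1. Of 12 names for ribosome quality control and the link to p53, Gcn1l1 was the only one listed, toward MMP-low at 0.30 with an adjusted p of 1. Gcn1, another symbol of the same gene, is also among the 12 names.

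Ribosomal RNA reads, a separate measure in the quality table, were slightly more frequent in MMP-high. Copying from the poly(A) tail leaves most ribosomal RNA out, so the rate is that of a remainder. It ran over 0.414% to 2.25% of reads with a median of 0.699% in 126 MMP-high libraries, and over 0.377% to 4.37% with a median of 0.574% in 122 MMP-low libraries. Up to number 85 the median was 0.768% for MMP-high, against 0.591% for MMP-low, and above 85 it was 0.611% for MMP-high, against 0.502% for MMP-low. The ranges overlapped almost wholly, and cells of 1 sample are no replicates, so no test was made. The 3 highest libraries were MMP-low.

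**Figure D5:**
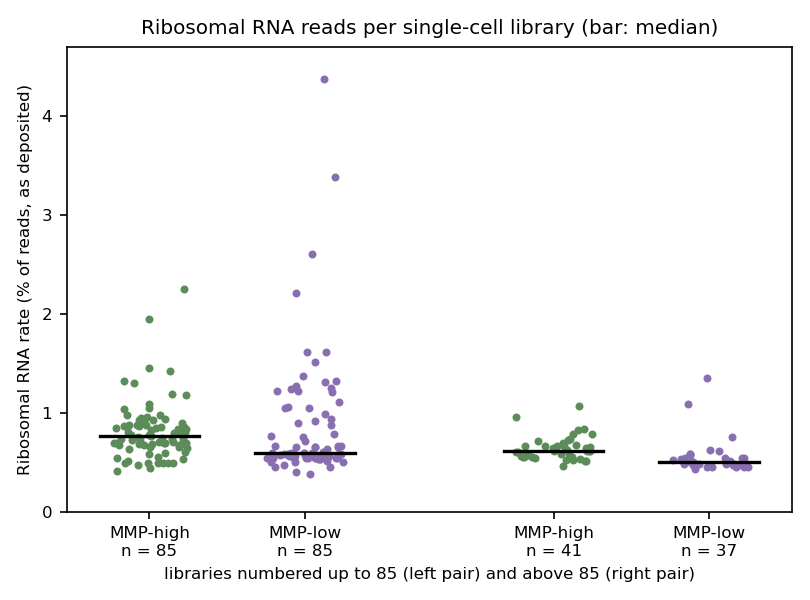
Ribosomal RNA rate of each single-cell library in percent of reads, as deposited, for MMP-high and MMP-low libraries numbered up to 85 and above 85; 1 point is 1 library, the side position is random and the bar is the median. The MMP-high median is above that of MMP-low in both pairs, at 0.768% against 0.591% and 0.611% against 0.502%, while the points overlap.

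Markers of other cells were listed mostly on the MMP-low side, where 5.86% of all genes tested were listed, beside 5.67% on the MMP-high side. Of 14 genes of granulocytes, monocytes and macrophages, 1 stood on the MMP-high side and 9 on the MMP-low side per the authors' deposited table, with S100a9 at 2.15 toward MMP-low. These 10 were detected in 26.1% to 100% of MMP-high cells, against 95.2% to 100% of MMP-low ones, per the authors' deposited table. Of 11 lymphoid genes 1 stood on the MMP-high side and 5 on the MMP-low side, and Ighm, Igkc, Igll1 and Cd79a were at 0% of MMP-high cells, against 61% to 70.5% of MMP-low ones, per the authors' deposited table. Toward MMP-high 0 erythroid and 0 endothelial or stromal genes were listed, and toward MMP-low 3 of 9 and 1 of 7. Of 11 long-term HSC genes 1, Hlf, stood on the MMP-high side and 6 on the MMP-low side per the authors' deposited table. An adjusted p under 0.05 was given to 0 and 5 of these. The 6 toward MMP-low were detected in 28.6% to 100% of MMP-high cells, against 76.2% to 100% of MMP-low ones. Ly6a, which encodes Sca1, had a log fold of 0.83 toward MMP-low, and Hlf and Ly6a were detected in 100% of both groups. A summed level of these lists was not available from the files analysed here, and their part in the ribosomal protein differences was not tested. Depth and genes detected moved with the groups as well, and within the libraries above 85 they went the other way, but folds within that set could not be had from the tables. Whether MMP-high cells hold more ribosomal protein RNA per cell or a larger share of it cannot be told apart from relative values.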

How the data were processed

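Quality values of 248 single-cell libraries and the authors' result tables were used. Per the submitters' processing notes, bcl2fastq 2.17.1.14, STAR 2.5.2b and the build mm10 were used. Counts of reads and of detected genes per library, and rates as fractions of reads, were deposited by the authors, and fractions were turned into percent here. The authors' deposited tables give an average log fold change, the fraction of cells in which a gene was detected, and a p-value with an adjusted p-value per gene. Adjusted p divided by p gave 16203 genes tested. MAST, a model for single-cell expression, stands in the heading of the table of the MMP groups, per the file headers. A deposited table of pathway z scores for pairs of clusters was read and not interpreted, since the direction of its sign is not stated. The sources used here do not give the normalization, any filling in of values or the counting of shared reads, all of which bear on folds and detection. Cells that passed the authors' filter are not named in the files.

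Here, members were found by name and counted, described by median and range, and set beside all listed genes, with Python 3.11.15 and pandas 2.3.3. No new test was made, since each group counted as 1 sample. Windows of 100 nt were matched exactly between GENCODE M21 transcripts, and the matching was tested on simulated sequences. Transcripts annotated as retained intron, processed transcript or subject to decay were left out. Promoter windows came from RefSeq GRCm38.p6. The members and gene lists were chosen with earlier results of these data known. Named in full were members on the MMP-low side, the 6 of largest fold per subunit, those of extreme detection difference, those in more than 1 table, the leading 4 per cluster and subunit, and up to 4 genes per other list. Some of these genes are not reported here and are left out of the plots that name genes. Other genes were added after their values were seen. Sequences were printed for the 5 longest pyrimidine runs, the leading gene per subunit and the gene on the MMP-low side, a choice made after the sequences were seen. Alternatives were adjusted p under 0.05 and 0.01, a fold minimum of 0.35, leaving out paralogs, adding ribosome-linked proteins, and sets of libraries by number (to 85 and above) and with over 600000 mapped reads. Counts with pseudogene copies were an alternative chosen after seeing the data.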

Additional observations from a re-analysis of the deposited data

How the results depend on the processing

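The count of ribosomal protein genes higher in MMP-high, 29, was 28 with an adjusted p under 0.05 or 0.01 and 5 at a fold minimum of 0.35. The count in MMP-low, 1, was 0 with an adjusted p under 0.05 or 0.01, at a fold minimum of 0.35 and without paralogs. For cluster D the count of 7 was 2 with an adjusted p under 0.05 or 0.01. For cluster A the count of 1 was 0 under both and without paralogs. With pseudogene copies, an alternative chosen after seeing the data, cluster C counted 2 in place of 1 and cluster E 5 in place of 0. The median detection difference of large subunit genes, 0, was 9.5 percentage points among members detected in under 95% of 1 group, which is Rpl7l1 alone, and the small subunit had no such member. Median genes detected, MMP-high minus MMP-low, was 1479 over all libraries, 1580 up to number 85 and -178 above it. With over 600000 mapped reads it was 1286. The difference in median mapped reads was 59751 over all libraries, 563531 up to number 85 and -109964 above it. Among libraries with over 600000 mapped reads it was 309168.5. The cause was not tested. The list of highly variable genes gives no p, so its counts by adjusted p could not be made. No paired analysis was possible because the results come from no test and each group counted as 1 sample; the numbers that titles share across groups only name libraries. Leaving out a replicate was not possible for the same reason. The depth behind each detection percentage is unknown.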
